A study of Mus musculus with 12 samples.

Results

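Synaptic adhesion molecules are the membrane proteins that hold a presynaptic ending against its postsynaptic partner, and 45 genes that encode them, with KIRREL3 among them, are described here in mouse spinal cord after contusion. The members were chosen by gene symbol, and each was read from the authors' table of group values. Of the 45 genes, 43 were listed above the lesion and 35 below it, among 13957 symbols listed at either site. CNTN5 and IL1RAPL1 were listed at neither site. NLGN1, LRRTM1, CNTN2, CNTNAP2, PTPRS, LRFN1, LRFN4 and CADM1 were listed above the lesion only. Of all 13645 symbols listed above, 12025 were listed at both sites. Why these genes are missing below is not known, and some, such as PTPRS (1864 and 1883), had high values above.

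Bulk RNA sequencing was performed on cord segments taken just above (rostral) and just below (caudal) a contusion at thoracic level 9, from male mice operated on at 4 months of age and examined at 14 days. All animals expressed human ApoE4, and the groups differed in synaptojanin 1, with both alleles normal (labelled synj1+/+) or with 1 allele inactive (labelled synj1+/-). Each of the 4 groups had 3 libraries. Because all 12 libraries came from contused ApoE4 cord, the values describe a genotype difference within injured tissue and hold no sham or ApoE3 reference.

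The table gives 1 value per gene, genotype and site, which combines the libraries of a group. The lowest value is exactly 1, and the values were read as FPKM (fragments scaled by transcript length and sequencing depth) with 1 added, on a scale set by upper quartile normalization. No spread between mice can be computed from such values, so no difference below has been tested, no error can be attached to it, and whether it exceeds the spread between animals is unknown. Differences are given as the log2 ratio of the value labelled synj1+/- to the value labelled synj1+/+, and a gene was counted as higher or lower when that ratio was at least 0.3 from 0, which is a fold of 1.23. SYNJ1 itself, the gene inactivated in 1 allele, was higher in tissue labelled synj1+/-, with values of 1905 and 2404 above the lesion and 1847 and 2593 below it, so the direction of the targeted gene runs against the labels. Every direction that follows is that of the labels.

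Presynaptic neurexins and the LAR-type receptor phosphatases (PTPRD, PTPRF and PTPRS) act as hubs, each of which binds several postsynaptic proteins. Neuroligins and LRRTMs are partners of neurexins, whereas SLITRKs, IL1RAPL1, SALM proteins (the LRFN genes) and LRRC4B are partners of the LAR-type phosphatases. Netrin-G proteins bind LRRC4-family proteins, contactins pair with Caspr proteins (the CNTNAP genes) along axons and at nodes of Ranvier, and SynCAMs (the CADM genes) and KIRREL3 bind across the cleft to their own family. In the brain KIRREL3 is best known for the synapses that mossy fibers make on inhibitory neurons.

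The presynaptic hubs had some of the highest values among the members. Above the lesion the highest values belonged to PTPRD, PTPRS and NRXN3, and the lowest to LRRTM2, LRFN3 and LRRTM3. PTPRD had values of 2065 in tissue labelled synj1+/+ and 1792 in tissue labelled synj1+/-, and LRRTM2 had values of 7.22 and 6.78. KIRREL3 was in the tenth place above the lesion and the seventh place below. The order between genes holds as an order of abundance only if the values are FPKM, as read here, and so scaled by transcript length. That reading was not checked. Neighbours in the order cannot be separated without a spread.

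**Figure D1:**
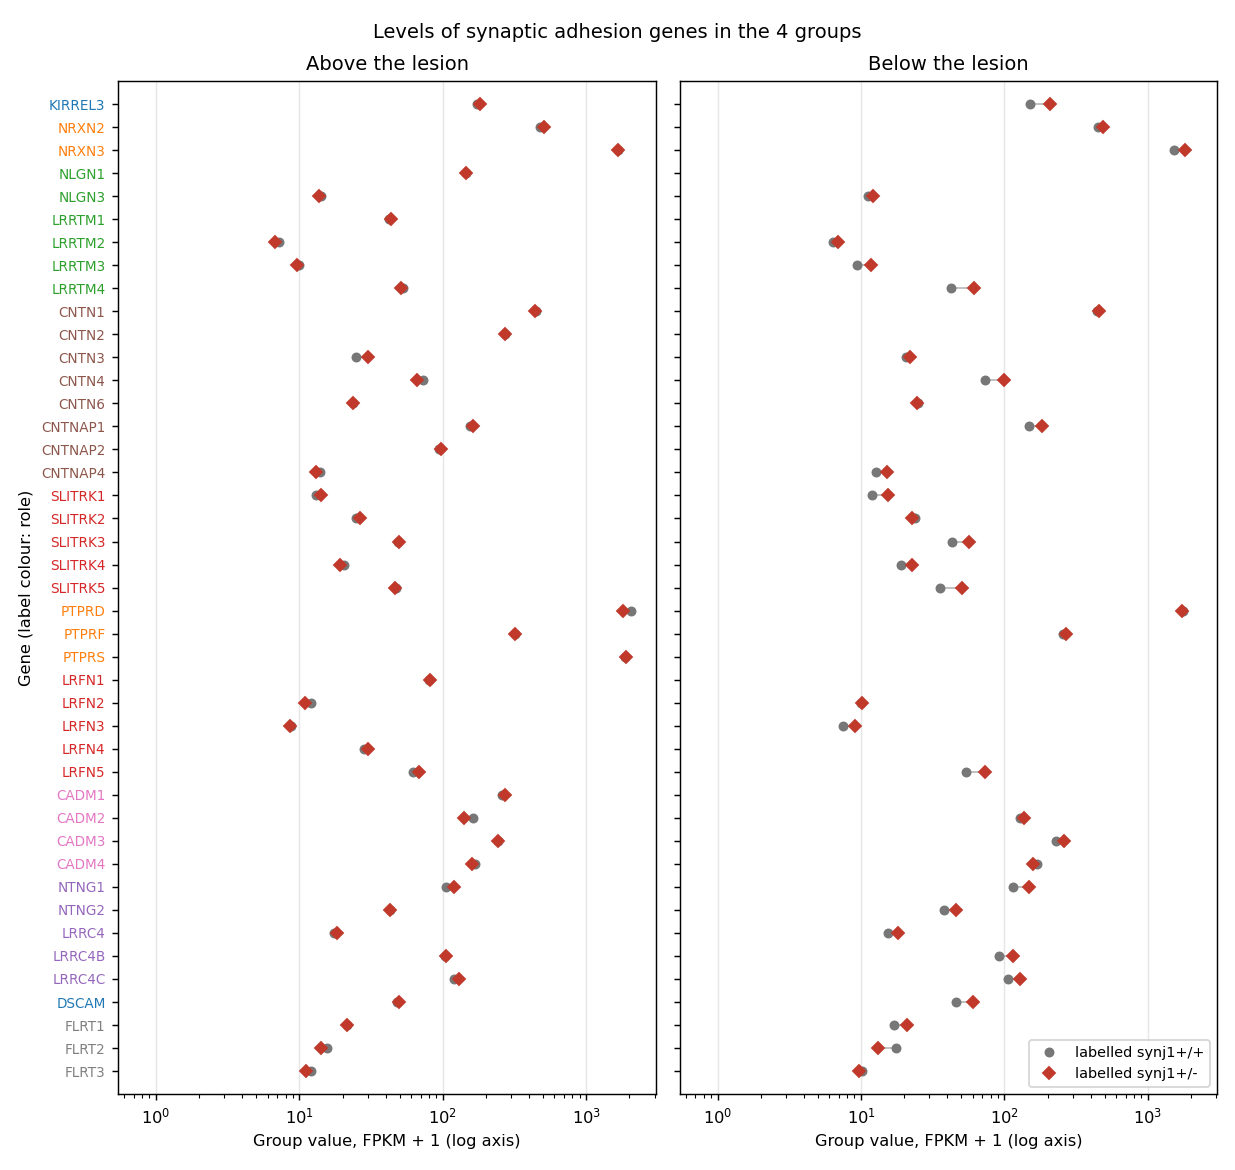
Group values (FPKM + 1, log axis) of the 43 listed members above and below the lesion; circles are tissue labelled synj1+/+, diamonds tissue labelled synj1+/-, and each point is 1 authors' value for 3 combined libraries, without an error bar. The 2 symbols of most genes coincide above the lesion, whereas below it the diamond lies to the right for 29 of the 35 genes.

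The first comparison asked how the genotypes differed rostral to the injury. Above the lesion the adhesion genes were nearly the same in both genotypes: 0 of 43 members were higher and 0 were lower by the threshold, against 4.87% and 8.54% of all 13647 rows listed there. The median log2 ratio was 0.00 for the members and -0.00 for all rows. The ratios ran from -0.22 for CADM2 to 0.27 for CNTN3, and 22 of the 43 were above 0, beside 49% of all rows. KIRREL3 had values of 173 and 181 in tissue labelled synj1+/+ and synj1+/-, a log2 ratio of 0.06. PTPRD, with a ratio of -0.20, and CADM2, a SynCAM with values of 162 and 139.6, had the lowest ratios. CNTN3, a contactin of neurons, had values of 24.9 and 30.03. The 8 members listed above the lesion only had ratios between -0.01 (CNTN2, values of 272 and 269.6) and 0.09 (LRFN4, values of 28.3 and 29.98), and among them PTPRS, a LAR-type phosphatase, had values of 1864 and 1883.

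The same comparison caudal to the injury gave a different picture. Below the lesion 13 of 35 members (37.1%) were higher in tissue labelled synj1+/- and 1 (2.86%) was lower, against 9.48% of all 12338 rows that were higher and 12.7% that were lower. The median log2 ratio of the members was 0.25, beside 0.01 for all rows, and 29 of 35 were above 0, compared with 52.8% of all rows. Neuron markers differed alike, with 6 of 13 higher and a median of 0.24. Relative to the median of those markers, 0 of 35 members were higher and 4 were lower, against 1.53% and 37.2% of all rows on that scale, and the median of the members was 0.01. The list was drawn up with earlier results of these data known, and KIRREL3 was part of its name. No statement about chance is attached to these counts.

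**Figure D2:**
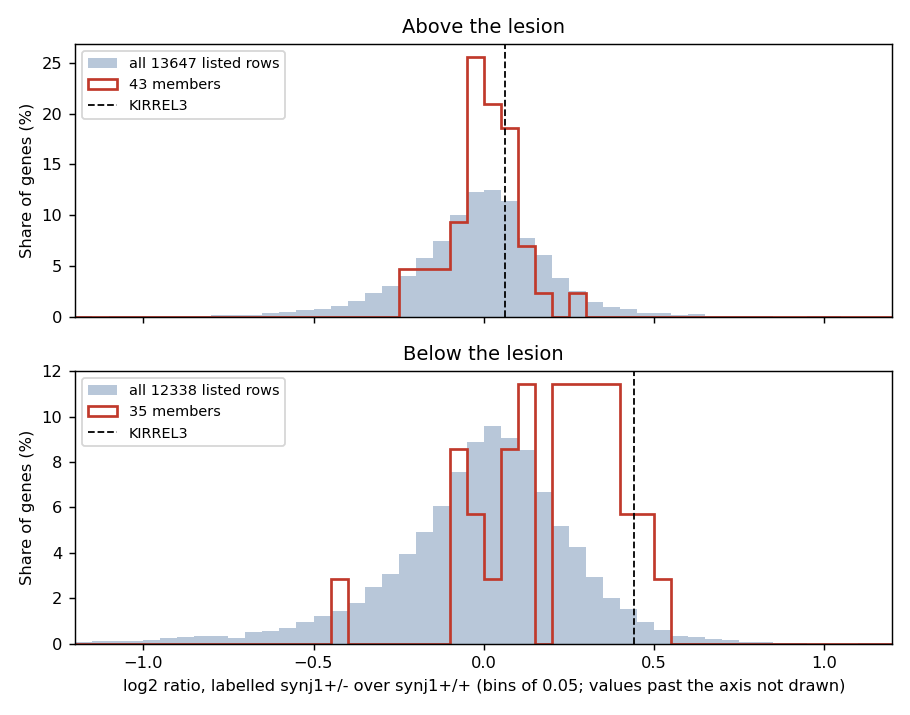
Share of genes (%) in bins of the log2 ratio of labelled synj1+/- to labelled synj1+/+ for all listed rows (filled) and for the members (outline), with KIRREL3 as a dashed line. The members lie within the body of all genes above the lesion (range -0.22 to 0.27) and most of them lie to the right of 0 below, where their median is 0.25 and FLRT2 lies apart at -0.41.

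KIRREL3 and DSCAM, both members of the immunoglobulin superfamily that bind their own kind, were higher below the lesion. KIRREL3 had values of 152 and 206 there, a log2 ratio of 0.44 or a fold of 1.36, and 96.9% of all rows had a lower ratio. DSCAM, which keeps branches of the same neuron apart in the retina, had values of 46.2 and 60.4 and a ratio of 0.39. Above the lesion the ratio of DSCAM was 0.05, with values of 47.6 and 49.2. In RefSeq on GRCm38.p6, KIRREL3 lies on chromosome 9 from 34485853 to 35040807. DSCAM lies on chromosome 16 from 96587452 to 97171113, at 5.57 Mb from SYNJ1 on the same chromosome. The other member on that chromosome, CADM2, is 23.3 Mb from SYNJ1 and had a ratio of 0.08 below the lesion. Whether sequence carried along with the inactive allele contributes to the value of DSCAM was not tested.

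Among the presynaptic hubs, 0 of 4 listed below the lesion reached the threshold, whereas 9.48% of all rows were higher and 12.7% lower. The median log2 ratio of the hubs was 0.09. NRXN3 came closest, with values of 1528 and 1813 and a ratio of 0.25. NRXN2 had values of 451 and 487 and a ratio of 0.11. PTPRF, with values of 258 and 270.05, had a ratio of 0.07. PTPRD, with values of 1755 and 1721, had a ratio of -0.03. All 4 hubs were under the median of the 35 members.

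Of the neurexin partners, LRRTM4 had the largest log2 ratio of any member below the lesion. Its values were 42.3 and 61.4, a ratio of 0.54 or a fold of 1.45, whereas above the lesion they were 52.4 and 51.1. LRRTM4 organizes excitatory postsynapses through neurexins and heparan sulfate proteoglycans. LRRTM3 had values of 9.45 and 11.8 and a ratio of 0.32. NLGN3 and LRRTM2, with values from 6.41 to 12.1, had ratios of 0.10 and 0.11. The values of NLGN1, a neuroligin of excitatory synapses, were 144.5 and 144.4 above the lesion.

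The SLITRK and LRFN partners of the LAR-type phosphatases gave 4 of 8 members past the threshold and a median of 0.32. Of all rows below the lesion, 9.48% were higher. SLITRK5 had values of 35.8 and 50.6 and a log2 ratio of 0.50. LRFN5, or SALM5, had values of 53.6 and 73.7 and a ratio of 0.46. SLITRK3, an organizer of inhibitory synapses, had values of 43.4 and 56.9 and a ratio of 0.39. SLITRK1 had values of 12.0 and 15.4 and a ratio of 0.36. The family was not uniform, since LRFN3 and SLITRK4 each had a ratio of 0.27, LRFN2 a ratio of 0.01 and SLITRK2 a ratio of -0.07. LRFN2 had values of 10.04 and 10.09, and SLITRK2 had values of 23.7 and 22.6.

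The netrin-G proteins and the LRRC4 family all had ratios above 0 below the lesion, with a median of 0.29. Past the threshold were 2 of 5, against 9.48% of all rows that were higher. NTNG1, a lipid-anchored protein of axons, had values of 113.9 and 147.6 and a log2 ratio of 0.37. LRRC4C, which binds NTNG1, had values of 106 and 129 and a ratio of 0.28. NTNG2 had values of 37.9 and 46.2 and a ratio of 0.29, and LRRC4, which binds NTNG2, had values of 15.5 and 18.2 and a ratio of 0.23. LRRC4B, the family member that binds LAR-type phosphatases, had values of 92.04 and 114.9 and a ratio of 0.32, the other one past the threshold beside NTNG1. In both ligand and receptor pairs the ratios were within 0.1 of each other, but the same held for genes that are not such a pair. LRRC4C (0.28) was nearer to NTNG2 (0.29) than to NTNG1 (0.37). Above the lesion NTNG1 had values of 104.6 and 119.8, a ratio of 0.20, which was the largest of this group there.

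Contactins and Caspr proteins gave 2 of 6 members past the threshold below the lesion, where 9.48% of all rows were higher. CNTN4 had values of 73.7 and 99.99 and a log2 ratio of 0.44, and above the lesion its values were 73.0 and 66.5 with a ratio of -0.13. CNTNAP1, the Caspr of the paranodal junction between axon and myelin, had values of 147.7 and 183 and a ratio of 0.31. CNTN1, its partner at the paranode, had values of 440.5 and 459.8 and a ratio of 0.06, so the 2 genes of that junction did not have like ratios. CNTNAP4 had a ratio of 0.25, CNTN3 of 0.11 and CNTN6 of -0.02.

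SynCAMs and FLRT proteins varied in direction below the lesion. CADM3, the SynCAM of neurons and axons, had values of 227.5 and 262 below the lesion and a log2 ratio of 0.20. CADM4, found on Schwann cells and oligodendrocytes, had values of 168 and 158 and a ratio of -0.09. FLRT proteins bind latrophilins and UNC5 receptors. FLRT1 had values of 16.9 and 21.0 and a ratio of 0.31, FLRT3 had values of 10.2 and 9.75 and a ratio of -0.07, and FLRT2 had values of 17.6 and 13.2 and a ratio of -0.41. FLRT2 was the only member below -0.3 at either site, and above the lesion its values were 15.7 and 14.1.

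**Figure D3:**
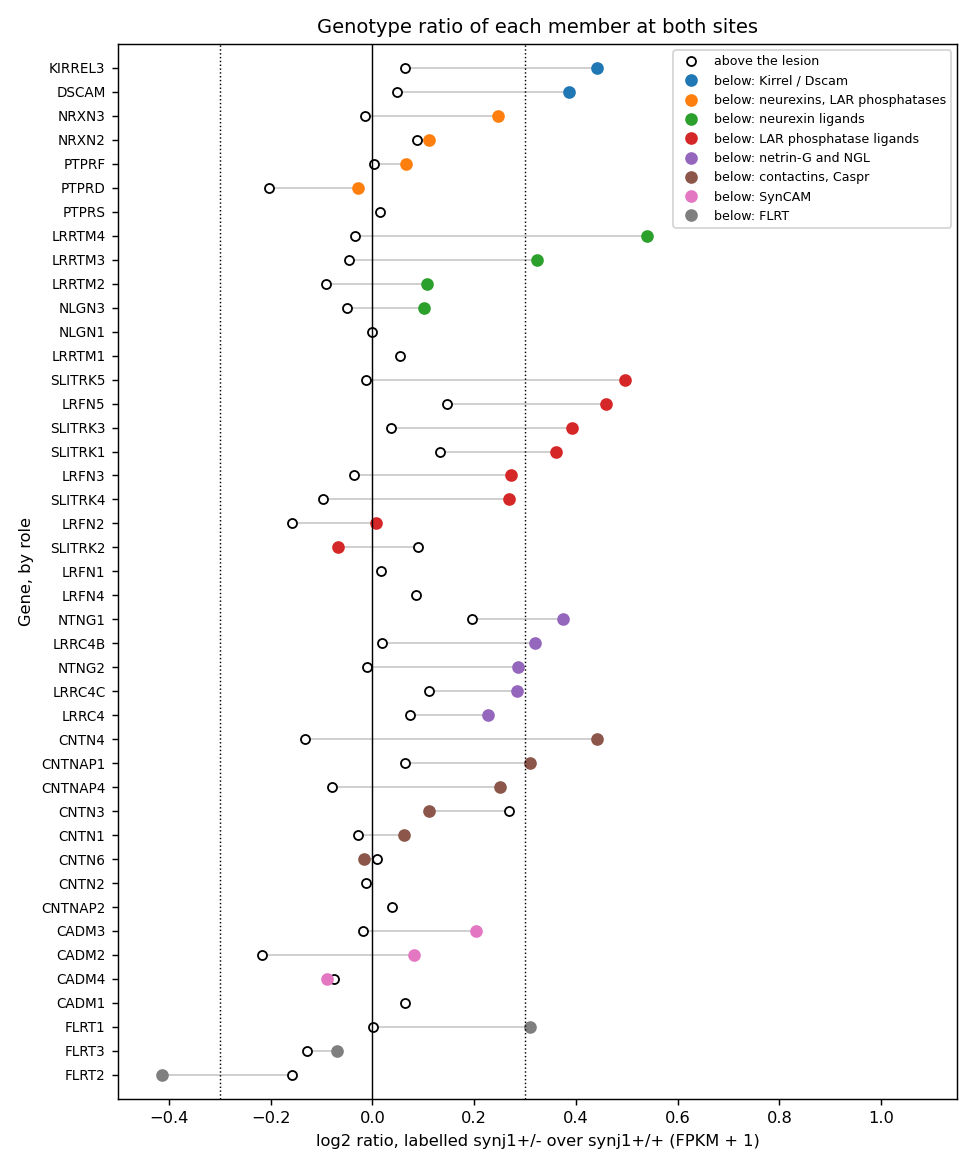
log2 ratio of labelled synj1+/- to labelled synj1+/+ for each member, ordered by role; open circles are above the lesion, filled circles below with a colour for each role, and dotted lines mark 0.3 in either direction. All open circles lie between the dotted lines, and 13 filled circles lie to the right of them, led by LRRTM4 at 0.54, with FLRT2 alone to the left at -0.41.

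The sites were compared next through their log2 ratios, since the libraries of each site were reduced to a common read number and normalized separately. The ratio below minus the ratio above had a median of 0.23 over the 35 members listed at both sites. It was at least 0.3 for 14 members and at most -0.3 for 0, against 11.5% and 11% of the 12025 genes listed at both sites. The count of 14 was 6 with 5 added to each value, 9 when each site was centred on all rows, and 3 of 13 at a mean value of at least 100. The shares of all genes at those settings were not computed. Relative to the neuron markers 3 members were higher and 3 lower, against 4.25% and 24.7% of genes. The largest differences were 0.57 for both CNTN4 and LRRTM4 and 0.51 for SLITRK5, and KIRREL3 had a difference of 0.38. At both sites 14 of the 35 members had a ratio above 0, against 31.3% of genes. A ratio above 0 only below the lesion was found for 15 members, and that share was not computed over all genes. By the animal numbers, 3 mice of each genotype were used for sequencing and each site has 3 libraries of that genotype, so the same mice would have given both segments and the sites are not independent. The labels do not link libraries by mouse.

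Counts at other thresholds stand beside the same shares of all rows. At a log2 ratio of 0.2, 21 of 35 members were higher below the lesion and 1 was lower, against 18.9% and 19.8% of rows, and above it 1 of 43 was higher and 2 were lower, against 11.2% and 15.6%. At 0.5, 1 member (LRRTM4) was higher below the lesion and 0 were lower, against 2.04% and 5.74%, and above it 0 were higher or lower, against 1.3% and 2.87%. For the ratio below minus above, 19 members were higher and 1 was lower at 0.2, against 21.4% and 18.2% of genes, and 3 were higher and 0 lower at 0.5, against 3.58% and 4.56%. That difference was above 0 for 30 of 35 members and 53.9% of genes. A ratio above 0 at both sites was found for 31.3% of genes.

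Levels set across the sites carry the separate normalization of each. In tissue labelled synj1+/+, 31 of 35 members had a lower value below the lesion than above, with a median log2 ratio of -0.16. In tissue labelled synj1+/-, 14 of 35 were lower below, with a median of 0.08. Over all genes listed at both sites the medians were -0.00 and 0.02, and 50.2% and 44.5% of genes were lower below. KIRREL3 shows both features, with values of 173 above and 152 below in tissue labelled synj1+/+, and 181 above and 206 below in tissue labelled synj1+/-.

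Genes outside the list that take part in the same junctions were read in the same way. Of 52 further adhesion genes, 35 were listed below the lesion, of which 8 were higher and 0 lower, against 9.48% and 12.7% of all rows. The median log2 ratio of the 35 was 0.18. Past the threshold with a mean value of at least 10 were ELFN1 (0.46), IGSF21 (0.38), DSCAML1 (0.36), CLSTN3 (0.34), NEGR1 (0.33), ADGRL2 (0.31) and LRRN3 (0.31). ELFN1 is a postsynaptic protein that binds metabotropic glutamate receptors, CLSTN3 is a calsyntenin, and ADGRL2 is a latrophilin. Above the lesion 44 of these genes were listed, 1 higher and 6 lower, against 4.87% and 8.54% of all rows. The median of the 44 was -0.06. Past the threshold there, at a mean value of at least 10, were IGSF9B (-0.46), TENM1 (-0.44), MDGA2 (-0.41), NCAM2 (-0.39) and NRCAM (-0.37).

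Cytoplasmic scaffolds that tie these receptors to the synapse gave a like picture. Below the lesion 5 of 15 listed scaffold genes were higher and 0 lower, against 9.48% and 12.7% of all rows. The median log2 ratio of the 15 was 0.26. PPFIA3, a liprin-alpha that binds the LAR-type phosphatases, had values of 107.2 and 165 and a ratio of 0.62. TIAM1 (0.48), LIN7B (0.39), DLG2 (0.34) and MAGI2 (0.32) were the others. Above the lesion 1 of 21 scaffolds was higher, LIN7B at 0.34, and 1 was lower, CASK at -0.32. The shares of all rows there were 4.87% and 8.54%. Of 6 UNC5, DCC and netrin genes listed below, UNC5D (0.41) and UNC5B (0.38), both receptors for FLRT proteins, were past the threshold, and 0 were lower.

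Markers of the cell types in a cord segment differed between the same groups, and in bulk tissue fewer cells of a type cannot be told apart from less RNA per cell. Of 13 neuron markers listed below the lesion, 6 were higher and 0 lower, with a median log2 ratio of 0.24. Their summed value was 9662 in tissue labelled synj1+/+ and 12130.1 in tissue labelled synj1+/-, of which SNAP25 alone gave 5272 and 6929. SNAP25, SYT1, SLC32A1 and GAD1, with ratios of 0.39, 0.54, 0.45 and 0.41, were among the 6 higher markers. Of all rows below the lesion, 9.48% were higher and 12.7% lower. Relative to the median of the neuron markers LRRTM4, the highest member, had a ratio of 0.296, and KIRREL3 had a ratio of 0.20.

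Fibroblast and microglia or macrophage markers were lower in tissue labelled synj1+/-. All 6 fibroblast markers were lower below the lesion, with a summed value of 379.7 in tissue labelled synj1+/+ and 66.8 in tissue labelled synj1+/- and a median log2 ratio of -2.86. COL1A1, COL1A2, COL3A1, DCN and LUM had ratios between -3.14 and -2.71, and PDGFRB a ratio of -0.49. Of 8 microglia and macrophage markers, 7 were lower there and 0 higher, with summed values of 2448 and 1369 and a median of -0.65. Of 8 astrocyte markers 2 were lower and 0 higher, with summed values of 16186 and 12690.1, of which GFAP alone gave 11117 and 8485. Oligodendrocyte markers gave 0 of 5 past the threshold in either direction, with a median of 0.03, 3 of 5 above 0 and summed values of 11376 and 10735, of which MOBP alone gave 10366 and 9724, although MBP, MAG and CNP were not listed. Precursor markers gave 1 of 5 lower, endothelial markers 1 of 5 lower and Schwann cell markers 2 of 3 lower. All of these marker counts stand beside 12.7% of all rows that were lower below the lesion. No listed value of the neuron, microglia or fibroblast markers was at the lowest value of 1. The part of these markers in the values of the adhesion genes was not tested beyond the values relative to the neuron markers.

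Above the lesion, where no adhesion member reached the threshold, neuron markers gave 0 of 15 past it in either direction, with a median log2 ratio of 0.08. Their summed values were 11742 and 13146, of which SNAP25 alone gave 5239 and 6248. Relative to the median of the neuron markers, 0 of 43 members were higher and 1 was lower, against 2.72% and 14.1% of rows. Microglia and macrophage markers were lower in 6 of 10 and fibroblast markers in 5 of 6 there, against 8.54% of all rows. Those 5 fibroblast markers had values from 1.73 (COL3A1) to 10.6 (DCN), near the lowest value of 1. PDGFRB, with values of 15.4 and 17.8, had a ratio of 0.20. The summed fibroblast values above were 47.5 and 39.03, a smaller gap than below.

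**Figure D4:**
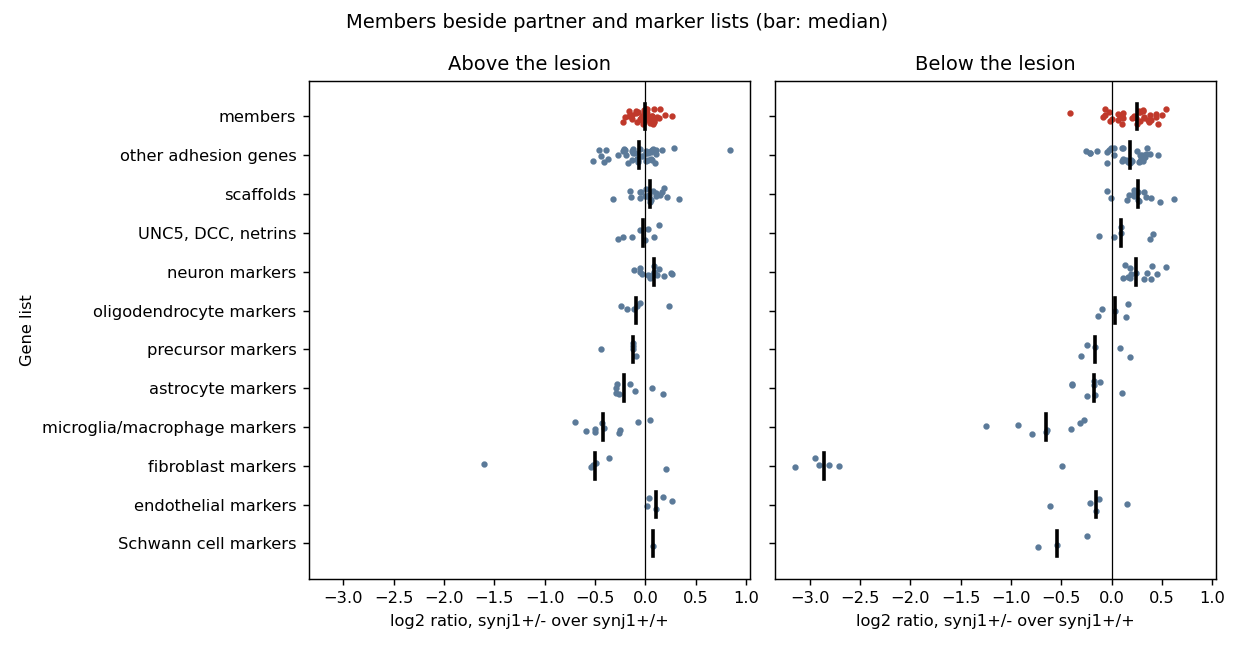
log2 ratio of labelled synj1+/- to labelled synj1+/+ for single genes (points) of the members, of partner lists and of cell type markers, with the median of each list as a bar. Below the lesion the medians of the members (0.25), scaffolds (0.26) and neuron markers (0.24) lie together, and that of the fibroblast markers lies at -2.86.

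Several members are nested genes. In the GENCODE M21 annotation of GRCm38, 8 members lie wholly inside another protein-coding gene on the opposite strand, namely LRRTM1, LRRTM2 and LRRTM3 inside the alpha-catenin genes CTNNA2, CTNNA1 and CTNNA3, FLRT1 inside MACROD1, FLRT3 inside MACROD2, LRRC4 inside SND1, LRFN1 inside SAMD4B and LRFN4 inside PCX. The library kit does not mark strand, so reads of a nested gene and its host cannot be told apart where they overlap. Below the lesion LRRTM3 had a log2 ratio of 0.32 and its host CTNNA3 one of -0.39. FLRT1 and its host MACROD1 had ratios of 0.31 and 0.37. Without the 8 nested members, 11 of 30 were higher below the lesion, and the median was 0.26. In all, 11 members overlap another protein-coding gene, and those not nested, CNTNAP1, CADM3 and NRXN2, stayed among the 30. On the opposite strand, CNTNAP1 (0.31) partly overlaps PLEKHH3 (-0.03), and CADM3 (0.20) partly overlaps AIM2 (-0.57).

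Genes for adhesion molecules are long. The median genomic span of the members listed below the lesion was 93.2 kb, against 22.8 kb for all genes listed there. PTPRD spans 2271 kb on chromosome 4 and CNTNAP2 2241 kb on chromosome 6. Across the 35 members, Spearman's rho between span and the log2 ratio was 0.06 below the lesion, as it was across all listed genes, and rho between level and ratio was 0.06. These are descriptions across genes of the same libraries, which are not independent replicates.

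Promoter sequences from RefSeq (GRCm38.p6) were read for 33 of the 45 members, from 250 bases before to 50 bases after each start. The 250 bases before the start are shown for the 3 members with an entry that had the highest ratios below the lesion and for FLRT2, which had the lowest, to set genes of opposite direction side by side. Capitals mark the letters searched, on both strands. The E-box was searched as CAGCTG, the GC box motif as GGGCGG, the well known promoter box as CCAAT, the motif of the TATA-binding protein as TATAAA, and the CRE as TGACGTCA. LRRTM4 has 2 starts, with the stretches at chr6:80018627-80018876 and chr6:80019393-80019642. The others are SLITRK5 at chr14:111675777-111676026, LRFN5 at chr12:61522917-61523166 and FLRT2 at chr12:95691976-95692225, all on the plus strand. These starts differ from the gene starts on the same build, which are 80018858 for LRRTM4, 111675115 for SLITRK5, 61522851 for LRFN5 and 95692006 for FLRT2. The stretches of SLITRK5, of LRFN5 and of the second LRRTM4 start thus lie inside the annotated genes. That of FLRT2 begins before the gene start but lies mostly inside the gene, and that of the first LRRTM4 start ends just inside it.
LRRTM4 first start: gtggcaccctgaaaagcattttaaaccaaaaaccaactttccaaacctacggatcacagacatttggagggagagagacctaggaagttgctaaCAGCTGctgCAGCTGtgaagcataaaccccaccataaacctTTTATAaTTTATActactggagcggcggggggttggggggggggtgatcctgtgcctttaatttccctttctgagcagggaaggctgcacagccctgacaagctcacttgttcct
LRRTM4 second start: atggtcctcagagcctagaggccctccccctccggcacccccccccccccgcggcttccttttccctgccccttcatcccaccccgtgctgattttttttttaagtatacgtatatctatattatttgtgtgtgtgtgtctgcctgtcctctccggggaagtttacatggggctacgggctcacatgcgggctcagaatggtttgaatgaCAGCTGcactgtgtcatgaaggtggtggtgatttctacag
SLITRK5: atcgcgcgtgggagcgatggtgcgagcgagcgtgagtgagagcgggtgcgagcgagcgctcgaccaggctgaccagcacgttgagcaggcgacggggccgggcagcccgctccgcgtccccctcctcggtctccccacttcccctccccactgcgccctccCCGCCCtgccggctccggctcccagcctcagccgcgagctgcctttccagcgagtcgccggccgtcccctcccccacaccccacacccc
LRFN5: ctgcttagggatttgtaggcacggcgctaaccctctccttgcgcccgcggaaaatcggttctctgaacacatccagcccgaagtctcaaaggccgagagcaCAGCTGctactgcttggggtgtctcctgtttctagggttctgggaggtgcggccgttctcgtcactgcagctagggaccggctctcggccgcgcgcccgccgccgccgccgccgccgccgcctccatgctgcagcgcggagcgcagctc
FLRT2: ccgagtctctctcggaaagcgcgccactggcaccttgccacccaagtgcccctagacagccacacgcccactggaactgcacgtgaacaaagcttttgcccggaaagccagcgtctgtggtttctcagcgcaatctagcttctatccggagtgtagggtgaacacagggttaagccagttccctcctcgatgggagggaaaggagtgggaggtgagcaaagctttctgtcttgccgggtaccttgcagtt

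The stretches of LRRTM4 and LRFN5 hold the E-box letters, the first of LRRTM4 also holds TATA box letters, that of SLITRK5 holds a GC box, and that of FLRT2 holds none of the 5 motifs. Over the full 300 bases, CAGCTG was found in 5 of 12 promoters (41.7%) of the members higher below the lesion, all of them from CNTN4, LRFN5 and LRRTM4, and in 1 of 20 (5%) of the other members listed there. Those 12 promoters belong to 10 genes, and CNTN4 and LRRTM4 each count with more than 1. KIRREL3, CNTNAP1 and FLRT1 have no promoter entry and were not searched. CAGCTG was found in 16.3% of all 32851 promoters. The GC box was found in 16.7% of the promoters of the higher members, 25% of the others and 35.7% of all. The CCAAT box was found in 16.7%, 30% and 37.4%, the TATA box in 8.33%, 5% and 13.6%, and the CRE in 0%, 5% and 1.79%. A match of letters describes the sequence and shows no binding site.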

How the data were processed

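The authors sequenced libraries made from total RNA with the TruSeq RNA v2 kit from cord above and below the lesion, in 4 groups of 3. As their methods state, excess reads were removed at random so that all libraries of a site matched its smallest, and STAR 2.5.4b and Cuffdiff 1.3.0 were used on GRCm38.p6, per the submitters' processing notes. The number of reads before alignment was therefore equal within a site, whereas the share that aligned varied between samples. The deposited table holds group values, read as FPKM plus 1. Its lowest value of 1 bears on the added 1 and not on the unit. It also holds the authors' fold changes, p-values and q-values, as does a shorter deposited list. Those comparison columns were not used.

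From the group values the log2 ratio of labelled synj1+/- to labelled synj1+/+ was computed for each row with no filter. Genes were counted at an absolute log2 ratio of at least 0.3. No test was run, because 1 combined value per group leaves no spread. All members are named, together with partner genes past that threshold at a mean value of at least 10. Members and lists were chosen with earlier results of these data known. Alternatives were another added constant, filters on low values, other thresholds and centring. Calculations were tested on simulated data. Python 3.11.15, numpy 2.4.6, pandas 2.3.3, scipy 1.17.1 and matplotlib 3.10.9 were used.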

Additional observations from a re-analysis of the deposited data

How the results depend on the processing

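Each group has 1 combined value, so results without single libraries could not be computed, and the precision of any ratio is unknown. No paired analysis was possible because a single combined value stands for all libraries of a group and the labels share no sample numbers. With 1 subtracted from each value, or with only genes of a mean value of at least 10, no count moved by more than 1.5 times and no median by 0.1. With 5 added to each value, 6 members were higher below minus above. With a mean value of at least 100, 13 members remained below the lesion, of which 4 were higher and 0 lower, and 3 were higher below minus above. At a threshold of 0.2, 1 member was higher and 2 were lower above the lesion, 21 were higher below it, and 1 was lower below minus above. At 0.5, 1 member was higher and 0 lower below the lesion, and 3 were higher below minus above. These counts follow from the thresholds and filters themselves. Centred on the median of all listed genes, 9 members were higher below minus above. Shares of all genes were not computed with 5 added, at a mean value of at least 100 or after centring.

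Further alternatives were chosen after seeing the data. Without members on chromosome 16, 12 members were higher below the lesion, and without the nested members 11. Relative to the median of the neuron markers, 1 member was lower above the lesion. Below it 0 were higher and 4 lower, with a median of 0.00681. Below minus above, 3 were higher and 3 lower, with a median of 0.0695. That setting subtracts 1 constant per site, so it shifts all members alike. Of 800 single member values over the alternatives, 70 moved by at least 0.1 through that shift and 5 with 5 added.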
